A study of Mus musculus with 24 samples.

Results

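The Spata genes share a name, for spermatogenesis associated: they were named for their expression in the testis, and many code for unrelated proteins. Related among them are the Spata31 genes, Spata2 and Spata2l, and Spata5 and Spata5l1. Members were all genes of the total and nascent RNA tables whose symbol is Spata followed by a number, with or without further letters, except Spata16 and Spata22. Of 29 matching rows, 27 were kept out of 52323 rows in each table, and all were present in both tables. The study measured total RNA and nascent RNA in germ cells of wild-type NMRI mice whose spermatogenesis had been synchronised with WIN18,446, an inhibitor of retinoic acid synthesis, and retinoic acid. Each mouse received 2 mg of 5-ethynyl uridine (EU), a nucleoside built into RNA as it is made, at 24 days after birth, and cells were sorted by ploidy 3 hours later. In each assay, spermatogonia were measured in 3 libraries (2 animals), preleptotene spermatocytes in 1, leptotene spermatocytes in 4 (3 animals) and pachytene spermatocytes in 4 (2 animals). All groups received the synchronising treatment and EU, and the 2 assays used different animals.

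Spermatogonia are the dividing germ cells that precede meiosis. Spermatocytes pass through preleptotene, leptotene and pachytene of the first meiotic prophase, and pachytene cells are known to begin making many RNAs whose proteins are used later, when spermatids build the acrosome and flagellum. Several Spata proteins act in those sperm structures, while others serve in most cell types, for example in protein unfolding or ubiquitin signalling. Levels are FPKM, read fragments scaled by gene length and by library size, so genes can be compared per length. Differences are on the log2(FPKM + 1) scale with their standard error, which understates changes of low genes, and were tested two-sided with limma over all genes, with animals as replicates. A gene was called at a Benjamini-Hochberg adjusted p under 0.05 and is then said to have risen or fallen.

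Leptotene library 2 of each assay went most clearly against its stage label. Leptotene library 2 of total RNA correlated with pachytene libraries at Spearman 0.874 to 0.904 across 19202 genes, and with the other leptotene libraries at 0.528 to 0.569. Leptotene library 2 of nascent RNA did the same, at 0.754 to 0.860 against 0.594 to 0.625 over 16375 genes. Both are called by their label below, and results that rest on them are given with and without them. Leptotene library 3 leaned towards spermatogonia. In nascent RNA it correlated with spermatogonia libraries at 0.766 to 0.862 and with the other leptotene libraries at 0.594 to 0.779. In total RNA these ranges were 0.739 to 0.853 and 0.528 to 0.846. The lowest value with leptotene was in each assay that with library 2. Library 3 was left out only where each library was left out in turn. Markers of somatic testis cells were highest in spermatogonia libraries: in total RNA, summed FPKM of 8 Sertoli cell genes ran from 129 to 181 there, 7.78 to 28.1 in leptotene and 2.19 to 3.78 in pachytene, where only Rhox5 was at 0 in all libraries. The same sums of 5 peritubular and vascular genes were 138 to 322, 1.09 to 8.59 and 0.400 to 0.849. Sums of 6 spermatid markers were 6.62 to 11.1 in pachytene, with Tnp1 at 0 there, 2.45 to 8.29 in spermatogonia, 5.43 in leptotene library 2 and 0.658 to 1.59 in the other leptotene libraries. They thus moved with the Spata genes that rose between leptotene and pachytene, while pachytene and spermatogonia overlapped. Sums of 6 pachytene markers moved with those genes too. They were 46.2 to 90.9 in spermatogonia, 64.2 to 113 in leptotene libraries 1, 3 and 4, 1657 in leptotene library 2 and 1871 to 1945 in pachytene. The part of either marker set in those rises was not tested. Spike-in rows made up 2.49% to 8.19% of summed FPKM in total and 5.01% to 76.5% in nascent libraries. The depth is not given; steps in low FPKM values put it at 7200000 to 16110000 fragments in total and 5210000 to 10400000 in nascent libraries, a rough estimate since only 21.4% to 34.4% of low values lay within 0.05 of a whole count.

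The Spata genes differed from each other in level by orders of magnitude. In pachytene total RNA, 12 or 13 of the 27 reached 1 FPKM and 5 or 6 reached 10 FPKM. Spata4 alone made up 76.3% to 80.7% of their summed FPKM in the 4 pachytene libraries. It ranked between 35 and 40 among all genes there. In spermatogonia the sum was 53.9 to 78.1 FPKM and Spata5 was the leading gene in 2 of 3 libraries, with 25.3% and 40.2% of the sum. Without Spata4 the sum was 47.0 to 70.5 FPKM in spermatogonia and 121 to 135 FPKM in pachytene, so the other 26 genes together also stood higher in every pachytene library. Bulk RNA does not separate fewer cells of a type from less RNA per cell, and this holds for all levels below.

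**Figure D1:**
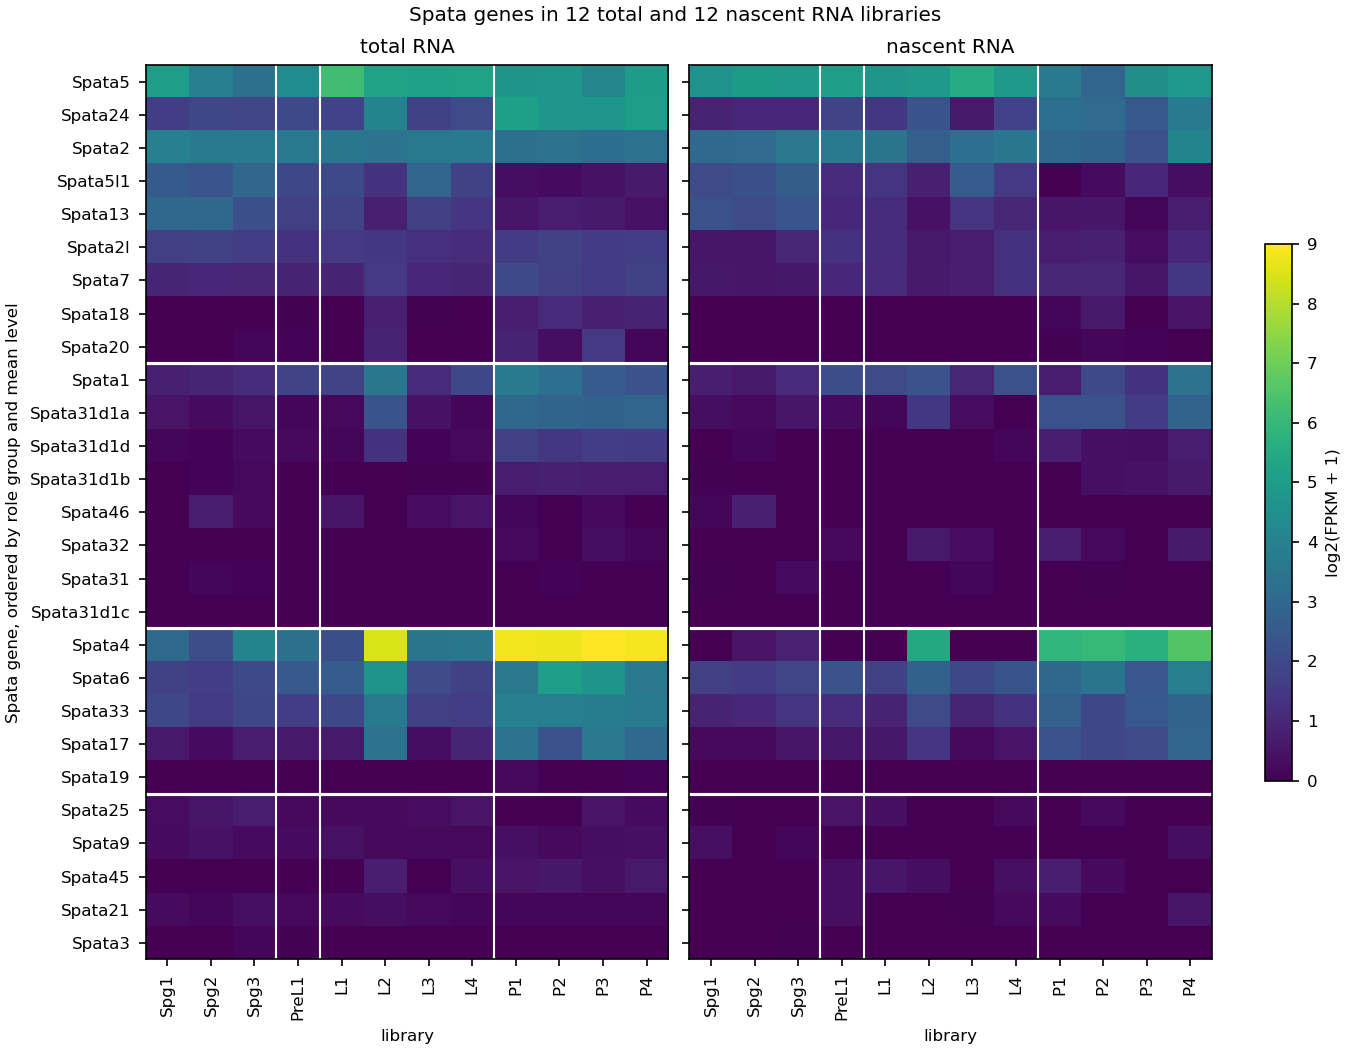
Level of the 27 Spata genes in each library, as log2(FPKM + 1) in colour, for total RNA (left) and nascent RNA (right); rows are grouped by role, separated by white lines (widely expressed, acrosome and sperm head, flagellum, little described), and columns by stage (Spg spermatogonia, PreL preleptotene, L leptotene, P pachytene). Spata4 is the brightest row in the 4 pachytene libraries and in leptotene library 2, at 357 to 505 FPKM in total RNA.

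**Figure D2:**
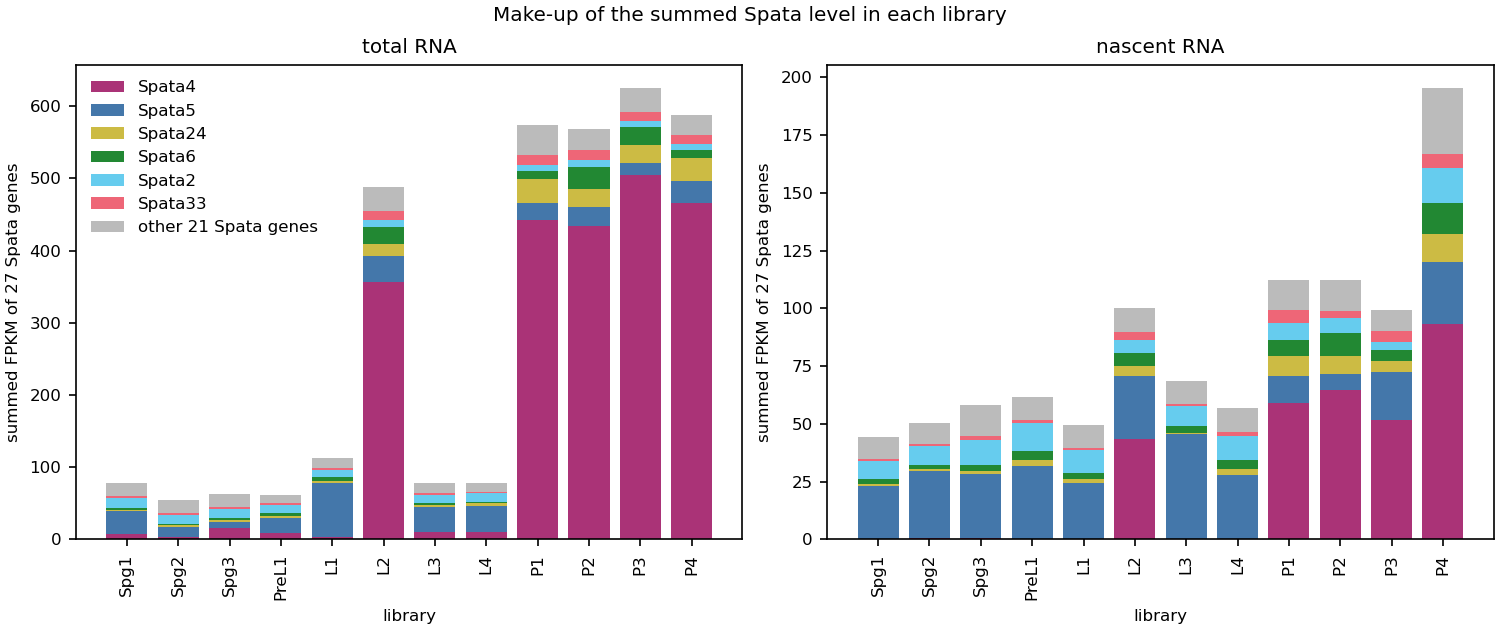
Summed FPKM of the 27 Spata genes in each library (bars from 0), split by gene, in total RNA (left) and nascent RNA (right); the vertical scales differ. In pachytene, Spata4 takes 76.3% to 80.7% of the total RNA sum, and Spata5 leads in most earlier libraries.

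Of the 14 Spata genes that reached 1 FPKM in at least 2 of the 11 tested total RNA libraries, 9 rose and 2 fell from spermatogonia to pachytene. Among all 19097 genes tested, 53.2% were called, of which 23.2% rose and 29.9% fell as shares of those tested. The median difference of the 14 was 1.68, against -0.14 over all genes. These counts describe the family only, because Spata17, Spata31d1a and Spata31d1d passed the level filter through pachytene libraries and leptotene library 2 alone. The adjusted p-values of Spata17, Spata31d1a and Spata31d1d below are descriptions for the same reason.

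Upstream DNA is shown for the 5 of those 11 called genes whose window, the 250 bases before the RefSeq start (GRCm38.p6, which shares coordinates with mm10), holds no GENCODE M21 exon of any gene. Capitals mark matches, on either strand, to letters bound by factors known from spermatocytes and spermatids: MYB sites (CAACTG or CAACGG and TAACTG or TAACGG), the cAMP response element half-site TGACG and the RFX half-site GTTGCC. Spata4 at chr8:54600531-54600780 (+), Spata7 at chr12:98627892-98628141 (+) and Spata31d1d at chr13:59731753-59732002 (-) rose, and Spata5l1 at chr2:122630375-122630624 (+) and Spata13 at chr14:60634455-60634704 (+) fell.
Spata4: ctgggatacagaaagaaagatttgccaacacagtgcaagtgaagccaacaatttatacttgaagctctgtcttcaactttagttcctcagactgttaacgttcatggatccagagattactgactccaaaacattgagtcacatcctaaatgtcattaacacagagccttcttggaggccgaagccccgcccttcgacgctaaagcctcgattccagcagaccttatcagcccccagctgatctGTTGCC
Spata7: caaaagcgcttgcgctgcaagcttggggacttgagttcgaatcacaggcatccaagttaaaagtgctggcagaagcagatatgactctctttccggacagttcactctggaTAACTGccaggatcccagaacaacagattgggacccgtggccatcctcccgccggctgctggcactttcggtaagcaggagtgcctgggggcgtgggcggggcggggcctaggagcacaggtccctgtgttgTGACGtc
Spata31d1d: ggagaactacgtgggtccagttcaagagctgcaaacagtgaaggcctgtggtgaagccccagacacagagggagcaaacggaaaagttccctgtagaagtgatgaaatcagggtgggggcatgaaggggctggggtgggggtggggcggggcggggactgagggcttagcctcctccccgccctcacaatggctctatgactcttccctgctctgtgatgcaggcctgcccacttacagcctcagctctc
Spata5l1: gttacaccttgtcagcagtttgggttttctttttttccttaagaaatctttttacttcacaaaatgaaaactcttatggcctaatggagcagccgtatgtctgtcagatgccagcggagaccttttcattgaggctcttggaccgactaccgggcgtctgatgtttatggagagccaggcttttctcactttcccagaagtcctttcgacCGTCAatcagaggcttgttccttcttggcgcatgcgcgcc
Spata13: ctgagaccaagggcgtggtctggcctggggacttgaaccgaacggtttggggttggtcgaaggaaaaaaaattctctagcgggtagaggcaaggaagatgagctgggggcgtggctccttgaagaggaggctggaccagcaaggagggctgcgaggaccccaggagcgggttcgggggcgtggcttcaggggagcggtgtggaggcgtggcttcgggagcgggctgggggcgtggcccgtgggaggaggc

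The RefSeq start of Spata13 lies 704 bases inside the GENCODE gene, and the other 4 starts lie within 15 bases of the GENCODE ones. In Spata4 the RFX half-site begins 6 bases before the start. In Spata7 the MYB match begins 139 and the TGACG match 7 bases before it, and in Spata5l1 the reverse complement of TGACG begins 40 bases before it. Neither Spata31d1d nor Spata13 held a match. Promoters were listed for 25 of the 27 genes, without Spata24 and Spata2l. MYB letters stood in 7 of the 25, TGACG in 8 and GTTGCC in 3, against 23.66%, 17.77% and 10.43% of all 32851 listed promoters. Among the 8 risen genes with a promoter, 2 held MYB letters, 3 TGACG and 2 GTTGCC. CpG content varied widely among the risen genes, from 1 CpG in the Spata31d1a window to 39 in that of Spata1, with a median of 6 over all promoters and 6 in Spata4. The motif counts and this range include windows that overlap exons. Of the 250 bases of the Spata1 window, 197 lie in exons of Gng5, and the Spata31d1a window lies wholly in an exon of its own gene.

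Of 5 genes of the flagellum, the connecting piece and the mitochondrial sheath, 4 were tested (Spata4, Spata6, Spata17 and Spata33) and these 4 rose between spermatogonia and pachytene, with a median difference of 2.43. Over all genes 23.2% rose and 29.9% fell. The role groups were chosen with earlier results of these data known, and Spata17 passed the filter only through the high libraries. The count is thus a description. The fifth member, Spata19, was not tested.

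Spata4, known for strong testis expression, stood at 7.65, 3.32 and 15.4 FPKM in the 3 spermatogonia libraries of total RNA. Leptotene libraries 1 to 4 held 3.48, 357, 9.97 and 10.6 FPKM, and pachytene libraries 442, 434, 505 and 466 FPKM. Every pachytene library was above every other library, and leptotene library 2 was the only other one above 20 FPKM. The mean over animals was 44.2-fold higher in pachytene than in spermatogonia, a difference of 5.53 ± 0.69 (limma adjusted p 0.000942). Against leptotene the difference was 4.74 ± 0.63 (limma adjusted p 0.00312), and 5.80 ± 0.54 without leptotene library 2. The gene lies at chr8:54600781-54610098 on the plus strand of mm10, and 11.1% of its exon bases overlap an antisense gene that never exceeded 0.800 FPKM in total RNA.

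Spata6, needed to build the connecting piece between sperm head and tail, was at 2.41, 2.11 and 2.95 FPKM in spermatogonia. It reached 10.8, 30.9, 24.4 and 10.9 FPKM in pachytene. The leptotene libraries were at 5.11, 24.5, 3.20 and 2.31 FPKM, so pachytene and leptotene overlapped only through library 2. Its pachytene libraries were spread: libraries 2 and 3, from different animals, were both more than 2-fold above libraries 1 and 4. The rise from spermatogonia was 2.36 ± 0.58 (limma adjusted p 0.00863).

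Spata17, an IQ-motif protein of the flagellum, was below 1 FPKM in all spermatogonia libraries (0.524, 0.187 and 0.638) and at 9.42, 3.77, 11.05 and 7.48 FPKM in pachytene. Its leptotene values were 0.523, 9.49, 0.272 and 0.900 FPKM. The pachytene difference from spermatogonia was 2.51 ± 0.53 (limma adjusted p 0.00425). Spata33, which links calcineurin to mitochondria in the sperm midpiece, rose less and had pachytene values close together, at 14.2, 13.6, 12.7 and 12.1 FPKM. Spermatogonia held 2.75, 1.85 and 2.86 FPKM and leptotene 2.79, 11.8, 2.23 and 2.08 FPKM. Every pachytene library was above every other library, narrowly so above leptotene library 2, while spermatogonia and leptotene overlapped. The rise from spermatogonia was 1.99 ± 0.44 (limma adjusted p 0.00531).

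Among 8 genes of the acrosome and sperm head, 3 were tested. These 3 rose between spermatogonia and pachytene, where 23.2% of all genes rose. This count too is only a description, since Spata31d1a and Spata31d1d entered the test through pachytene libraries and leptotene library 2 alone. Spata1, reported in the acrosome, was at 0.745, 0.889 and 1.25 FPKM in spermatogonia and at 12.5, 8.73, 4.92 and 3.96 FPKM in pachytene. Leptotene libraries held 2.62, 10.5, 1.16 and 2.78 FPKM. Pachytene exceeded spermatogonia in every library, by 1.96 ± 0.49 (limma adjusted p 0.00904). Against leptotene its difference of 1.07 ± 0.45 was not called (limma adjusted p 0.0843), and it was 1.35 ± 0.31 without leptotene library 2 (limma adjusted p 0.00861).

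Spata31d1a and Spata31d1d belong to the Spata31 family, which is needed for the acrosome and for male fertility. Spata31d1a rose from 0.394, 0.195 and 0.422 FPKM in spermatogonia to 7.18, 6.45, 5.88 and 6.57 FPKM in pachytene, by 2.47 ± 0.38 (limma adjusted p 0.00130). In leptotene it was at 0.150, 4.03, 0.351 and 0.121 FPKM. Spata31d1d had the same order at a lower level, with 0.115, 0.0645 and 0.209 FPKM in spermatogonia, 0.0973, 1.42, 0.0601 and 0.137 in leptotene and 2.29, 1.72, 2.09 and 2.06 in pachytene. Its rise was 1.40 ± 0.26 (limma adjusted p 0.00259). For both genes the pachytene libraries lay close together and above all leptotene libraries, library 2 included.

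The 9 genes grouped as widely expressed did not share a direction. The group name is one of described role, not of levels in these libraries. Its untested members Spata18 and Spata20 were each listed at 0 in 5 of 12 total and 9 of 12 nascent libraries. Of 7 tested, 2 rose, 2 fell and 3 were not called, against 23.2% risen and 29.9% fallen over all genes. Their median difference was -0.04. Spata24, whose protein binds a TATA-box-binding protein relative, had the second largest rise on the log2(FPKM + 1) scale, while its fold of 11.1 was below those of Spata4, Spata31d1a (18.2), Spata17 (15.98) and Spata31d1d (13.6). It was at 2.20, 2.76 and 2.71 FPKM in spermatogonia, 2.54, 15.9, 2.45 and 3.16 in leptotene and 32.6, 25.4, 25.6 and 31.8 in pachytene. Every pachytene library was above every other library, leptotene library 2 included, and the rise from spermatogonia was 3.05 ± 0.42 (limma adjusted p 0.00111). GENCODE M21 lists a second gene model, SPATA24, on the same strand over 41.9% of its exon bases, so its reads may have been divided.

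Spata7, a ciliary protein that binds Rpgrip1 in photoreceptors, had the smallest rise. It was at 0.900, 1.02 and 0.935 FPKM in spermatogonia, 0.810, 1.85, 1.06 and 0.889 in leptotene and 3.05, 2.26, 1.89 and 2.31 in pachytene. Pachytene libraries lay above all others, narrowly so above leptotene library 2. The difference from spermatogonia was 0.79 ± 0.27 (limma adjusted p 0.0338). This call was lost in 4 of 20 alternatives.

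Spata5l1 and Spata13 fell. Spata5l1, a relative of the ribosome-assembly ATPase Spata5, was at 4.82, 4.21 and 6.93 FPKM in spermatogonia and at 0.264, 0.187, 0.367 and 0.576 in pachytene. In leptotene, library 3 was as high as spermatogonia (6.597 FPKM) and libraries 1, 2 and 4 held 2.99, 1.44 and 2.38 FPKM. Over all genes library 3 correlated with spermatogonia libraries at Spearman 0.739 to 0.853. The mean was 16.4-fold lower in pachytene than in spermatogonia, a difference of -2.30 ± 0.46 (limma adjusted p 0.00346). GENCODE types this gene as a processed transcript.

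Spata13, a guanine nucleotide exchange factor that acts with Apc on cell migration, was at 7.15, 7.19 and 3.54 FPKM in spermatogonia. It held 2.61, 0.735, 2.26 and 1.70 FPKM in leptotene and 0.438, 0.602, 0.553 and 0.352 in pachytene. The 3 stages did not overlap in total RNA, and the pachytene mean was 11-fold below that of spermatogonia (-2.04 ± 0.36, limma adjusted p 0.00195). Somatic and spermatogonia markers both moved with it. Peritubular and vascular genes summed to 214, 322 and 138 FPKM in spermatogonia libraries 1 to 3, 1.09 to 8.59 in leptotene and at most 0.849 in pachytene. Sums of 6 spermatogonia markers were 118 to 160 FPKM in spermatogonia, 25.1 to 103 in leptotene and 1.64 to 15.4 in pachytene. The part of either set in the fall was not tested.

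Spata5, Spata2 and Spata2l were tested and called in no total RNA comparison. Spata5 held 31.4, 13.7 and 8.99 FPKM in spermatogonia, 75.1, 36.0, 34.8 and 36.1 in leptotene and 24.1, 26.4, 16.2 and 30.1 in pachytene. All leptotene libraries were above all spermatogonia and pachytene libraries. Spata2, the adaptor that brings the deubiquitinase Cyld to the linear ubiquitin complex, was the steadiest, at 14.1, 12.5 and 11.8 FPKM in spermatogonia, 10.5, 9.70, 11.4 and 11.96 in leptotene and 9.07, 9.60, 8.62 and 9.28 in pachytene. Pachytene was lower in every library, yet the difference was -0.41 ± 0.32 (limma adjusted p 0.313). Its relative Spata2l held 2.27, 2.38 and 2.13 FPKM in spermatogonia, 1.80, 1.73, 1.38 and 1.22 in leptotene and 2.01, 2.40, 1.999 and 2.17 in pachytene, and 11.6% of its exon bases overlap Cdk10 on the other strand.

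**Figure D3:**
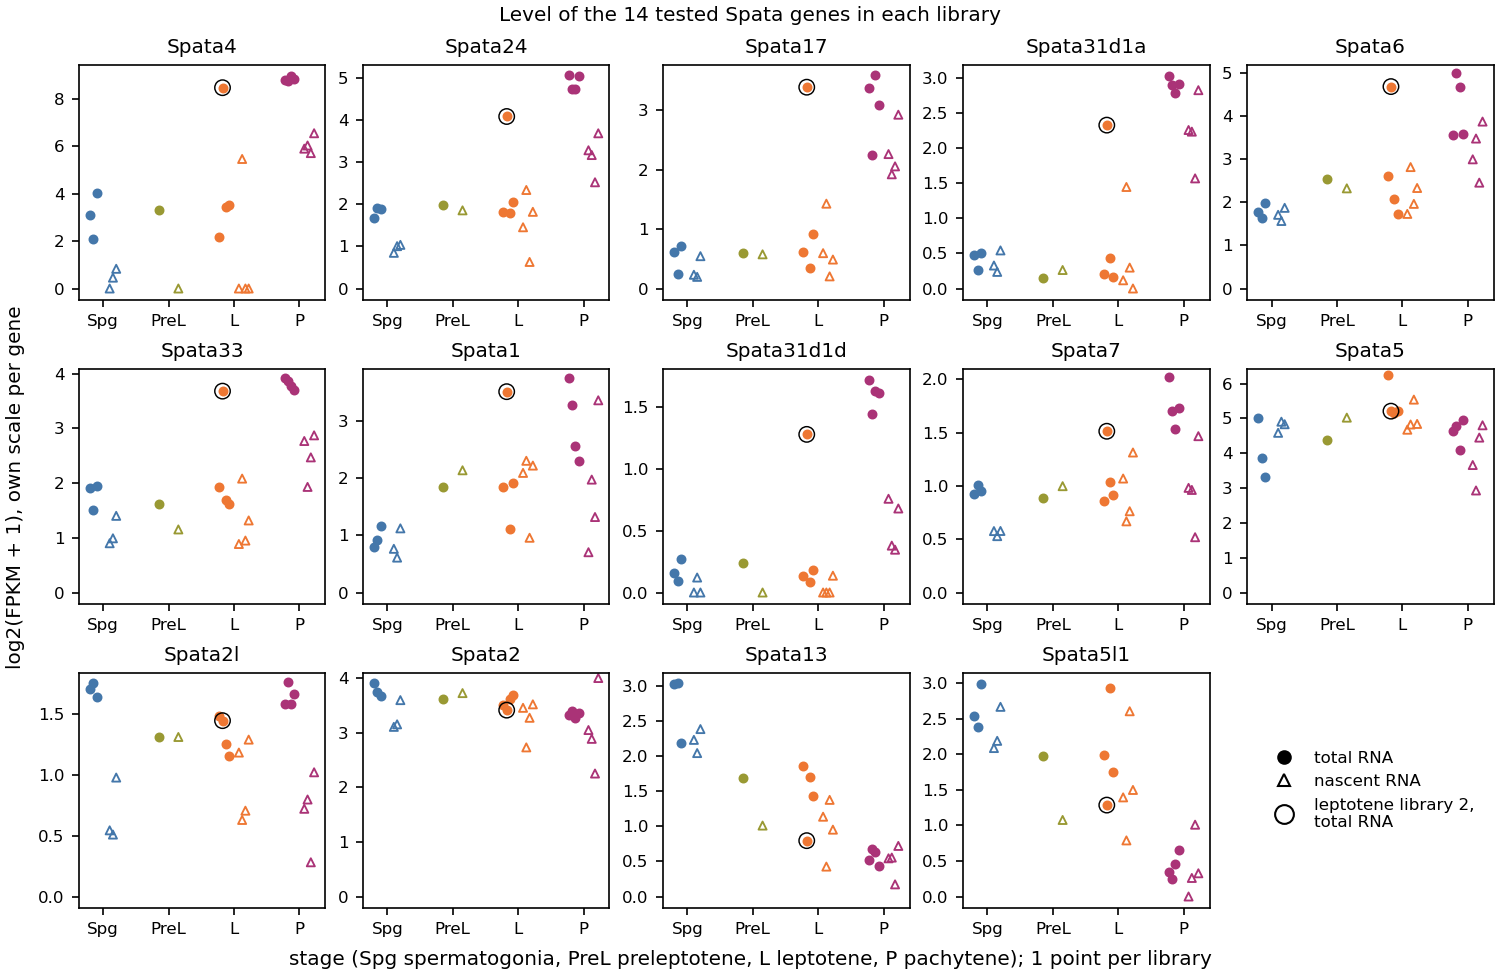
Level of each of the 14 tested Spata genes in every library (1 point per library, log2(FPKM + 1), own vertical scale per gene), by stage, with filled circles for total and open triangles for nascent RNA; genes are ordered by their total RNA difference between pachytene and spermatogonia. Leptotene library 2 of total RNA (ringed) lies above the other leptotene libraries in each of the 9 risen genes, for example at 357 FPKM for Spata4.

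Between spermatogonia and leptotene no Spata gene was called in total RNA with limma, and 2 had an unadjusted p under 0.05. Of all genes tested, 9.94% were called: 0.293% rose and 9.65% fell. The 2 were Spata5, higher in leptotene by 1.48 ± 0.42 (limma adjusted p 0.0629), and Spata13, lower by a difference of -1.12 ± 0.33 (limma adjusted p 0.0684). Both lie close to the threshold, and alternatives put them on either side of it: 5 of 20 called Spata5 and 6 of 20 called Spata13. Leptotene library 1 had the highest Spata5 level, 75.1 FPKM. Without leptotene library 2 the difference was 1.66 ± 0.46 for Spata5 and that of Spata4 went from 0.78 ± 0.63 to -0.27 ± 0.54, neither called. The count called was then also 0, against 0.801% risen and 11.5% fallen among all genes.

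Between leptotene and pachytene 8 Spata genes rose and 1, Spata5l1, fell by 1.68 on the log2 scale (SE 0.42, limma adjusted p 0.0138). Over all genes 40.5% were called, with 22.5% risen and 18.0% fallen. The 8 were those that also rose from spermatogonia, apart from Spata1. Spata6 (1.72 ± 0.53, limma adjusted p 0.0309) and Spata7 (0.70 ± 0.24, limma adjusted p 0.0471) were the least firm, with calls lost in 9 and 10 of 20 alternatives. Spata13 just missed the threshold at -0.92 ± 0.33 (limma adjusted p 0.0504). Spata24 rose by 2.62 ± 0.39, Spata31d1a by 2.29 ± 0.34, Spata17 by 1.99 ± 0.48 and Spata33 by 1.78 ± 0.40. Without leptotene library 2 the count was 9 risen and 2 fallen, with 29.0% and 24.8% over all genes. Without leptotene library 1, which leaves library 2 as the only one of its animal, no Spata gene was called between leptotene and pachytene, and 6 of the 11 calls between pachytene and spermatogonia remained. Those lost were Spata1, Spata6, Spata7, Spata17 and Spata33. The loss ran over all genes: of 18746 tested without that library, 8 rose and 1 fell between leptotene and pachytene, and 1969 rose and 4040 fell between spermatogonia and pachytene.

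The other 13 Spata genes were below the level filter in total RNA, and those named here were singled out after their values were seen. Spata18, the mitochondrial quality factor Mieap, was listed at 0 in all spermatogonia libraries and at 0.591, 1.16, 0.722 and 0.873 FPKM in pachytene, with 0.733 FPKM in leptotene library 2. Spata20 reached 1.80 FPKM in pachytene library 3 and 0.813 in leptotene library 2, and was listed at 0 in the other 3 leptotene libraries. Spata31d1b was at 0.658, 0.728, 0.594 and 0.635 FPKM in pachytene and at most 0.133 in any other library. In leptotene library 2, which was pachytene-like for its neighbour Spata31d1a, it was listed at 0. Spata45, little described, was above 0 in all pachytene libraries (0.281 to 0.522 FPKM) and highest in leptotene library 2, at 0.701 FPKM. The remaining 9 never passed 0.637 FPKM. Among them, Spata19 of the mitochondrial sheath was above 0 in 2 libraries, both pachytene, and Spata31d1c in 1. Spata46, which shapes the sperm head, and Spata25 had their highest values in spermatogonia, 0.637 and 0.606 FPKM. Spata25 shares 21.5% of its exon bases with Zswim1 on the other strand, which reached 23.5 FPKM, so its reads cannot be assigned with certainty. Whether the counting used strand is not given in the sources used here.

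In nascent RNA 13 Spata genes were tested, all of the above but Spata31d1d. Between pachytene and spermatogonia 6 rose and 2 fell, while 44.7% of 15994 genes were called, 16.0% risen and 28.7% fallen. The 6 were Spata4, Spata24, Spata17, Spata31d1a, Spata6 and Spata33, and the 2 were Spata5l1 and Spata13, each also called in total RNA with the same direction. In nascent RNA, Spata4, Spata17 and Spata31d1a reached 1 FPKM only in pachytene libraries and leptotene library 2. Counts of risen genes in nascent RNA are therefore descriptions of the family only. So are the nascent adjusted p-values of Spata4, Spata17 and Spata31d1a.

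Nascent Spata4 was at 0, 0.374 and 0.781 FPKM in spermatogonia, listed at 0 in the preleptotene library and in leptotene libraries 1, 3 and 4, and at 43.4 FPKM in leptotene library 2. Pachytene libraries held 59.0, 64.8, 51.7 and 93.3 FPKM. The difference between pachytene and spermatogonia was 5.53 ± 0.80 (limma adjusted p 0.000586). Total RNA of leptotene libraries 1, 3 and 4 held 3.48 to 10.6 FPKM of Spata4 while their nascent counterparts, from other animals, held none that was listed.

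Nascent Spata24 went from 0.797, 1.01 and 1.05 FPKM in spermatogonia to 8.68, 7.95, 4.72 and 11.8 in pachytene, by 2.18 ± 0.50 (limma adjusted p 0.00475). Nascent Spata17 went from 0.174, 0.146 and 0.458 FPKM to 3.80, 2.79, 3.16 and 6.61, by 1.91 ± 0.36 (limma adjusted p 0.00188). Nascent Spata31d1a went from 0.255, 0.178 and 0.457 FPKM to 3.79, 3.71, 1.97 and 6.10, by 1.81 ± 0.37 (limma adjusted p 0.00255). In all 3 no pachytene library overlapped a spermatogonia or leptotene library. Nascent Spata6 (2.26, 1.95 and 2.65 FPKM against 6.95, 10.1, 4.47 and 13.6) and Spata33 (0.866, 0.986 and 1.64 against 5.81, 2.81, 4.53 and 6.32) rose by 1.44 ± 0.45 and 1.34 ± 0.40. Both lay partly in the range of leptotene library 2, at 6.02 and 3.23 FPKM. Spata1 and Spata7, which rose in total RNA, were not called in nascent RNA. Their nascent differences between pachytene and spermatogonia were 0.94 ± 0.61 and 0.42 ± 0.32 (limma adjusted p 0.238 and 0.328). Between pachytene and leptotene nascent Spata1 differed by 0.05 ± 0.55 (limma adjusted p 0.957).

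The fallen genes were lower in every nascent pachytene library than in spermatogonia. Nascent Spata13 was at 3.69, 3.12 and 4.22 FPKM in spermatogonia, 1.20, 0.343, 1.59 and 0.934 in leptotene and 0.458, 0.468, 0.127 and 0.647 in pachytene. It was the only Spata gene called between spermatogonia and leptotene in nascent RNA, at -1.22 ± 0.34 (limma adjusted p 0.0406), where 11.1% of all genes were called, 0.863% risen and 10.2% fallen. Nascent Spata5l1 was at 3.25, 3.55 and 5.34 FPKM in spermatogonia and 0, 0.198, 1.01 and 0.254 in pachytene. Between leptotene and pachytene 5 Spata genes rose (Spata4, Spata24, Spata31d1a, Spata17 and Spata33) and Spata5l1 fell, the last only just (-1.33 ± 0.47, limma adjusted p 0.0498, lost in 12 of 21 alternatives), with 32.4% of all genes called and 16.2% in each direction. Without leptotene library 2 these were 6 and 1, with Spata6 added, against 18.2% and 22.7% of all genes, and the count between spermatogonia and leptotene was again 1, against 1.01% and 10.6%. Without leptotene library 1 only 1 Spata gene, Spata17, was called between leptotene and pachytene, and of all 15422 genes then tested 1017 rose and 553 fell.

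The nascent calls depended on the scale. Rescaling by the spike-ins, whose share varies widely between nascent libraries, left no call for any gene in the 3 nascent comparisons, and moved the median of all genes to -0.06, -1.20 and -1.38 for leptotene against spermatogonia, pachytene against leptotene and pachytene against spermatogonia. The authors' 5S-corrected signal, which holds 9 of the 12 nascent libraries and lacks leptotene library 2, called 2, 6 and 8 Spata genes in the same order, with medians over all genes of -1.24, 0.99 and -0.12. In total RNA, spike-in scaling moved those medians to -0.28, 0.56 and 0.29 and called 1, 11 and 11 Spata genes. The split over all genes moved with it, from 4298 risen and 3428 fallen to 7146 and 2025 between leptotene and pachytene, and from 4437 and 5716 to 5943 and 4729 between spermatogonia and pachytene. In the 5S-corrected signal it was 5252 and 449 between leptotene and pachytene, against 2589 and 2588 in nascent FPKM. Counts of Spata genes given here without such a split are descriptions only. The 9 Spata genes that rose and the 2 that fell between spermatogonia and pachytene kept their direction under each of these scalings of total RNA.

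Stage differences of total and nascent RNA were compared as an interaction of assay and stage over 13 Spata genes. None was called with limma between leptotene and spermatogonia or between pachytene and spermatogonia, where 0% and 0.0128% of 15616 genes were called. At an unadjusted p under 0.05 there were 0 and 1 Spata genes. The 1 was Spata5, for which pachytene exceeded spermatogonia by 0.74 ± 0.46 in total RNA and stood at -0.83 ± 0.47 in nascent RNA, an interaction of 1.57 ± 0.64 (limma adjusted p 0.464). Nascent Spata5 was at 23.1, 29.0 and 27.5 FPKM in spermatogonia, 24.6, 27.4, 45.6 and 27.7 in leptotene and 11.7, 6.63, 20.9 and 26.9 in pachytene. The interaction between pachytene and spermatogonia ran from -0.30 for Spata5l1 to that of Spata5, with a median of 0.59 over the 13 and 0.22 over all genes. For Spata4 it was 0.0026 ± 1.19, an error that leaves room for a more than 2-fold difference either way.

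**Figure D4:**
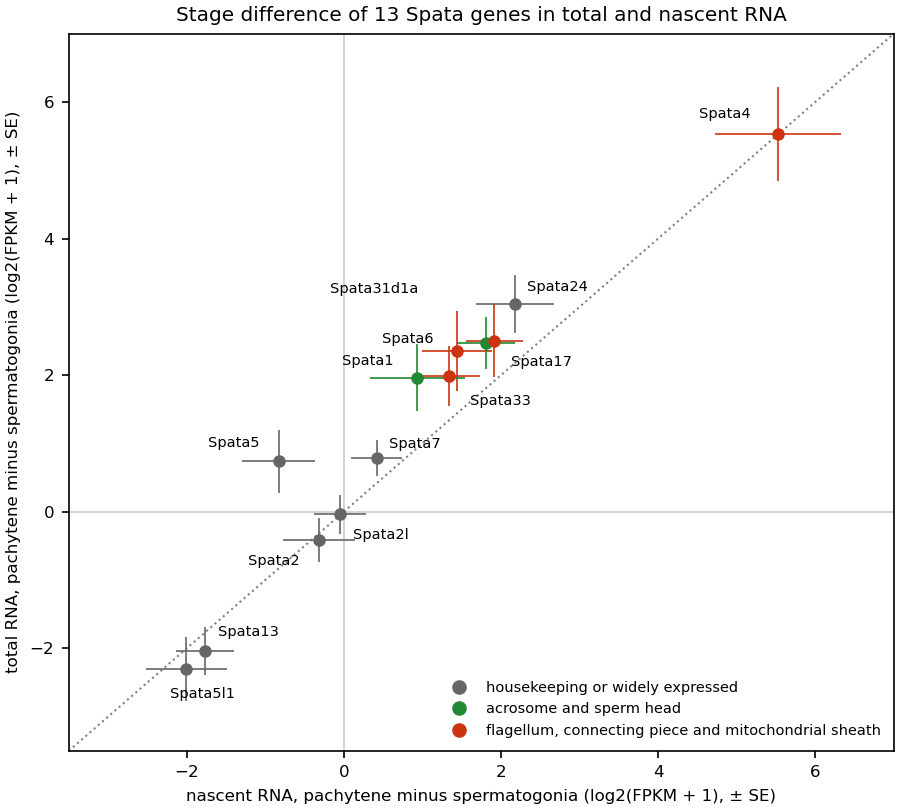
Difference between pachytene and spermatogonia of 13 Spata genes in total RNA (vertical) against nascent RNA (horizontal), both in log2(FPKM + 1), with bars of 1 standard error and colours for role; the dotted line marks equal differences. Spata4 lies at 5.53 on both axes, and Spata5 is the gene with differences of opposite sign, neither of them called.

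The ratio of total to nascent FPKM differed between genes. In pachytene it was 6.87 for Spata4, 3.48 for Spata24 and 2.70 for Spata33, while it was 1.12 for Spata2, 1.46 for Spata5 and 1.67 for Spata31d1a. The median over 12236 genes was 2.04, with quartiles at 1.33 and 3.44, so Spata4, Spata24 and also Spata31d1d (4.38) lay above the upper quartile and Spata2 below the lower one. These ratios are descriptions of levels from different animals, and each FPKM is relative to its own library.

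In the single preleptotene library of total RNA, the genes named here lay within the range of the spermatogonia or the leptotene libraries. Spata5 was at 20.0 FPKM, Spata2 at 11.3, Spata4 at 9.10, Spata6 at 4.75, Spata24 at 2.94 and Spata5l1 at 2.91 FPKM. Spata13, at 2.23 FPKM, was already below all spermatogonia libraries. Spata1, at 2.61 FPKM, was above all of them and level with leptotene library 1. With 1 library per assay these are values with no test.

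Several Spata genes lie side by side in the genome (mm10, GENCODE M21). Spata31d1a (chr13:59699806-59710330, minus strand) and Spata31d1b (chr13:59712284-59719295, plus strand) stand head to head with 1953 bases between them, and Spata31d1d (chr13:59725925-59731752, minus strand) follows 6629 bases on. The longest transcripts of Spata31d1a and Spata31d1b are 93.7% identical over 1975 bases, so reads could be shared and the level of each is uncertain. Their upstream windows at RefSeq starts are 96.1% identical over 233 bases. The window of Spata31d1a lies wholly in an exon of its longer GENCODE gene. The mean levels in pachytene were listed as 6.52 and 0.654 FPKM. The best alignments of Spata31d1d with these 2 were 64.6% and 69.1% identical, and it rose too. Spata33 (chr8:123212832-123222046) and Spata2l (chr8:123229801-123236233) are also neighbours, 7754 bases apart, and of these Spata33 rose from spermatogonia to pachytene while Spata2l was not called (-0.04 ± 0.29, limma adjusted p 0.922).

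Proteins described as partners of Spata proteins were followed as a list of 12 genes, all tested in total RNA. Between pachytene and spermatogonia 5 rose and 2 fell, 7 of 12 called where 53.2% of all genes were called, so the count is near the background. Ppp3r2, the regulatory subunit of the testis form of calcineurin, which Spata33 binds, rose by 5.37 ± 0.86. Rpgrip1, partner of Spata7, rose by 2.14 ± 0.49 and Bag6 by 1.96 ± 0.53. Rnf31, the ligase of the linear ubiquitin complex, fell, with a difference of -2.17 ± 0.48. Of the others, named after their values were seen, the catalytic subunit Ppp3cc rose by 1.93 ± 0.42 and Cyld fell, with -1.92 ± 0.44. In nascent RNA 2 of the 12 rose and 4 fell, again near the 44.7% called over all genes, and between spermatogonia and leptotene none was called in either assay.

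A list of 20 genes of sperm structure, chosen without regard to the name Spata, gave a comparison. The list was set with earlier results of these data known. In total RNA 12 of the 20 were tested and, from spermatogonia to pachytene, 5 rose and 2 fell, with a median difference of 0.72. The 7 of 12 called are near the 53.2% called over all genes, of which 23.2% rose and 29.9% fell. The largest rise was that of Zpbp, a protein of the acrosome, by 3.68 ± 0.49, followed by Odf2 of the outer dense fibres by 2.03 ± 0.52. Akap3 of the fibrous sheath rose by 1.30 ± 0.34 and the transition protein Tnp2 by 1.21 ± 0.38. The 2 that fell were the kinases Tssk6 and Tssk2. In nascent RNA 5 of 11 rose and none fell, where 16.0% of all genes rose and 28.7% fell. This count is a description, since the level filter can admit a gene through pachytene alone. Nascent Prm1 of the list reached 1 FPKM only in pachytene libraries 1 and 4, at 2.54 and 4.24 FPKM.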

How the data were processed

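Both gene tables, for total and nascent RNA, were deposited as FPKM. The submitters' processing notes name STAR 2.5.2a, StringTie and mm10; which StringTie version and annotation were used, and whether strand was counted, is not given in the sources used here. Per the labels, libraries were directional, total RNA was depleted of ribosomal RNA, nascent RNA was not, and ERCC spike-ins were added after extraction. The third deposited table holds a 5S-corrected signal, which equals the authors' nascent FPKM times a constant of 0.441 to 5.08 per library, for 9 libraries and 25 of the 27 Spata genes.

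Values were taken as log2(FPKM + 1) after setting aside 92 spike-in rows. The tests took genes that reached 1 FPKM in 2 or more libraries (of each assay, for the interaction), and where 1 animal gave several libraries of a stage, their mean was used. Two-sided tests came from limma 3.58.1 under R 4.3.3, with eBayes and a mean trend, adjusted by Benjamini-Hochberg over all genes tested, and spermatogonia, leptotene and pachytene shared 1 fit without the single preleptotene library. The fit was tested on simulated data. Animals, not title numbers, pair libraries across stages, per the labels. Deviations of the same animal correlated at 0.016 to 0.084 in total and -0.163 to 0.050 in nascent RNA. Values in every library were given for Spata genes called in any total RNA comparison, for up to 6 of the tested others by mean level, and up to 4 genes of each other list by the size of the called difference. The members, role groups and lists were chosen with earlier results of these data known. Promoters are from RefSeq GRCm38.p6, coordinates from GENCODE M21, and likeness from blastn 2.17.0. Python 3.11.15, numpy 2.4.6, pandas 2.3.3 and matplotlib 3.10.9 were used. Alternatives were another pseudocount (0.1), no filter, libraries as replicates, animal blocks, other scalings, the 5S-corrected table, the 9-library set and leaving out each library.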

Additional observations from a re-analysis of the deposited data

Results flagged for a closer look

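In the 14 tested Spata genes, the 4 leptotene and the 4 pachytene libraries of each assay were examined for a library far from the others, with Dixon's test of the gap to the nearest library. Chance would single out about 1 in 20 independent groups, and 8 of 56 were singled out. The groups share the same libraries and some libraries share an animal, so the 8 cannot be weighed against that rate. Leptotene library 2 accounted for 5: in total RNA Spata24 was at 15.9 FPKM against 2.45 to 3.16 in the other leptotene libraries, Spata33 at 11.8 against 2.08 to 2.79, Spata31d1a at 4.03 against 0.121 to 0.351 and Spata31d1d at 1.42 against 0.0601 to 0.137. In nascent RNA the same library held 43.4 FPKM of Spata4, which was listed at 0 in the other 3. The others were Spata5 in leptotene library 1 of total RNA, at 75.1 FPKM against 34.8 to 36.1, Spata1 in leptotene library 3 of nascent RNA, low at 0.944 against 3.27 to 3.95, and Spata31d1d in leptotene library 4 of nascent RNA, at 0.0987 FPKM where the others were listed at 0.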

How the results depend on the processing

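Of 35 called differences of single Spata genes, none reversed under any of 715 recomputed values, and 84 values lost the call. Among the 8 uncalled differences with the lowest unadjusted p-values (0.0539 or lower), 36 of 188 values passed it and 2 reversed: nascent Spata5 between leptotene and pachytene was 1.14 in the 5S-corrected table, and nascent Spata6 was -0.37 under spike-in scaling. The number of Spata genes called between leptotene and spermatogonia in total RNA was 0, and it became 2 with libraries as replicates, animal as a random block or the 9-library set, and 1 with median-of-ratios or spike-in scaling. Spata13 was also called there with scaling to the FPKM sum without spike-in rows. In nascent RNA the number was 1, and became 0 with a pseudocount of 0.1, no filter or spike-in scaling, 3 in the 9-library set and 2 in the 5S-corrected table. Under spike-in scaling the nascent counts for pachytene against leptotene (6) and against spermatogonia (8) became 0. The cause was not tested. Leaving out 1 library in turn gave 0 to 1, 0 to 11 and 6 to 11 calls in total RNA for leptotene against spermatogonia, pachytene against leptotene and pachytene against spermatogonia, and 0 to 2, 1 to 8 and 5 to 8 in nascent RNA. The interactions stayed at 0 calls under every alternative run. With animal as a fixed replicate block the counts were 0, 8 and 10 in total and 1, 5 and 6 in nascent RNA. The number called over all genes also moved with the scaling and with leaving out leptotene library 1. These counts of Spata genes are therefore descriptions of the settings only. With 2 or 3 animals a stage, and pachytene and spermatogonia sharing none, an effect of the animal cannot be told apart from that of the stage.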
